A study of Danio rerio with 14 samples.

Results

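Transcript levels in the zebrafish pineal gland at night were compared with those by day in fish kept on a light-dark cycle (LD) with lights on for 12 h and off for 12 h a day. Only the LD arrays entered this comparison. The night group was the 3 arrays of glands taken in the dark, at zeitgeber time 14, 18 and 22 (ZT, hours after lights on). The day group was the 4 arrays of glands taken in the light, at ZT2, ZT6 and ZT10 and in an additional collection named ZT2b, whose meaning is not given and which was treated as ZT2. These are 7 of the 14 arrays of the study, and the other 7 came from constant darkness (DD). Each array was hybridised with RNA of 12 pooled glands from adult males and females of 3 to 6 months, kept at 28 °C. All fish, by day and at night, carried the transgene Tg(aanat2:EGFP)Y8, whose green fluorescence guided the dissection; the array's EGFP control probe set read 13.1 to 67.1 on the LD arrays. A time of day was a single pool, apart from ZT2 and ZT2b, so the spread within the day and night groups holds differences between times as well as between pools.

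The fish pineal gland is made largely of photoreceptor cells that contain their own circadian clock and make melatonin at night. Tryptophan hydroxylase begins the pathway from tryptophan through serotonin, and arylalkylamine N-acetyltransferase (Aanat2 in the fish pineal gland) sets the nightly rate of melatonin synthesis. Light reaches the same cells through opsins: it resets the clock, partly by inducing per2, and it also switches other genes on or off directly.

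The values were MAS5 signals, linear intensities that the authors' software had scaled to a common trimmed mean. All changes below are differences of log2(signal + 14.9), night minus day, and a fold on this scale understates the change of a dim probe set. The median signal was 42.0 to 48.9 on the day arrays and 42.6 to 46.8 on the night arrays, and none of 4 array measures (median signal, hybridisation spikes, poly-A spikes and the GAPDH 3′ to 5′ ratio) separated the groups in a two-sided exact permutation test (p between 0.286 and 1, with 0.0571 the smallest p that 3 against 4 arrays can give). Exorh, the extra-ocular rhodopsin gene that marks fish pineal photoreceptors, read 10136 to 13925 on the 7 arrays.

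A gene was called when limma's adjusted p (Benjamini-Hochberg over 9300 probe sets) was under 0.05. By this rule 38 probe sets (0.409%) differed between night and day, of which 21 were higher and 17 lower at night (21 and 11 with median centring of the arrays). With each gene taken by its probe set of highest mean, 26 of 6117 genes (0.425%) were called: 14 (0.229%) were higher at night and 12 (0.196%) lower. Of the other 12 called probe sets, 9 had no single symbol and 3 were further probe sets of tph1a, per2 and hnrnpa0b. Hnrnpa0b, an RNA-binding protein gene named after its values were seen, fell on that probe set (-1.16, limma adjusted p = 0.0296) and was not called on its other 3. On all 38 probe sets the 3 night arrays lay wholly to one side of the 4 day arrays, which was true of 1148 of all 9300 (12.3%). The 38 were called on the same arrays, so their separation is no independent result. The called changes ran from 0.81 to 3.85 on the log2 scale, against a median absolute change of 0.19 over all probe sets. A further 134 probe sets changed by more than 1 without being called, and in 72 of these the night and day arrays overlapped.

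The calls rest on few pools. Leaving out 1 array at a time gave between 5 called probe sets (without ZT18) and 102 (without ZT10). Of the 26 called genes, all 26 were called again without ZT10, 11 without ZT22, 8 without ZT14, 7 without ZT6, 7 without ZT2b, 6 without ZT2 and 3 without ZT18. By these probe sets of highest mean, only rorab and LOC567909 stayed below the threshold whichever array was left out. All 26 genes kept their direction in each of these fits. With ZT2 and ZT2b averaged into 1 array, 6 of the 26 were called: sik1, ptp4a1, ppp1r3c2b, fkbp1b, rorab and LOC567909. Aanat2, tph1a (by its probe set of highest mean), per2, nfil3-6, rbp3, opn1sw2 and guca1aa were among those lost.

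**Figure D1:**
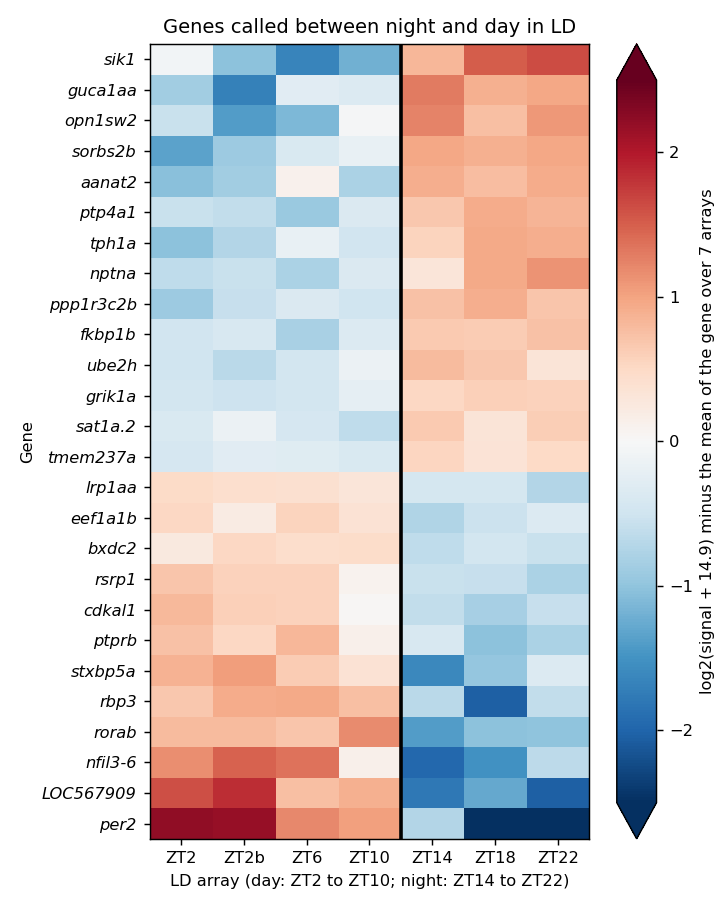
Signal of the 26 genes called between night and day, on the 7 LD arrays. Rows are genes, columns are arrays with the day arrays left of the black line and the night arrays right of it, and colour is log2(signal + 14.9) minus the gene's mean over the 7 arrays (values beyond the ends of the scale take the end colour). The 14 genes higher at night stand above the 12 that were lower, from sik1 (2.31) at the top to per2 (-3.85) at the bottom.

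Transcripts of tph1a, for the entry step of melatonin synthesis, and of aanat2, for its rate-setting step, were both higher at night. Aanat2 read 3193, 3587, 7072 and 3781 at ZT2, ZT2b, ZT6 and ZT10, and 12350, 11301 and 12482 at ZT14, ZT18 and ZT22. Every night array was above every day array, ZT6 was the highest by day, and the night level was already full at ZT14, early in the night. The mean rose from 4408 ± 1792 (SD, n = 4) to 12044 ± 647 (SD, n = 3), 2.87-fold on the log2 scale used (1.52 ± 0.23 SE, limma adjusted p = 0.0296). In whole-gland RNA, more cells that hold a transcript and more of it per cell cannot be told apart, here and below.

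Tph1a, a tryptophan hydroxylase gene, read 2382, 2934, 4296 and 3495 at ZT2, ZT2b, ZT6 and ZT10, and 7178, 9451 and 9149 at ZT14, ZT18 and ZT22. All 3 night arrays exceeded the day arrays, with ZT14 below the later pair. Its rise was 2.66-fold (1.41 ± 0.19 SE, limma adjusted p = 0.0219), and a second probe set of the gene gave a change of 1.56 ± 0.16 SE (limma adjusted p = 0.00583), which was called whichever array was left out (adjusted p at most 0.0417). When 1 array was left out, limma's adjusted p ranged from 0.00107 to 0.156 for aanat2, lost without ZT2, ZT2b, ZT14, ZT18 or ZT22, and from 0.0155 to 0.146 for the first tph1a probe set, lost without ZT2b, ZT18 or ZT22. With all arrays kept, the aanat2 call was also lost with quantile normalisation, with a robust variance prior and with the spread from all 14 arrays. Tph1a stayed called in these 3 settings.

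Of 17 listed genes of the pathway, 10 were on the array and 6 were tested. Asmt, which was named in advance, was not among those tested. The other tested enzymes of the pathway did not pass the test. These are the second hydroxylase gene tph2 (0.17), the decarboxylase gene ddc (-0.24), and 2 genes of the biopterin cofactor. So 2 of 6 tested members were called, both higher, where 0.229% of all genes were, and the median over the 6 was 0.15, beside a median of -0.001 over all genes. Ddc was 3361 at ZT2 and 2184 at ZT10, and read 2350, 2273 and 3220 at night, inside its day range.

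**Figure D2:**
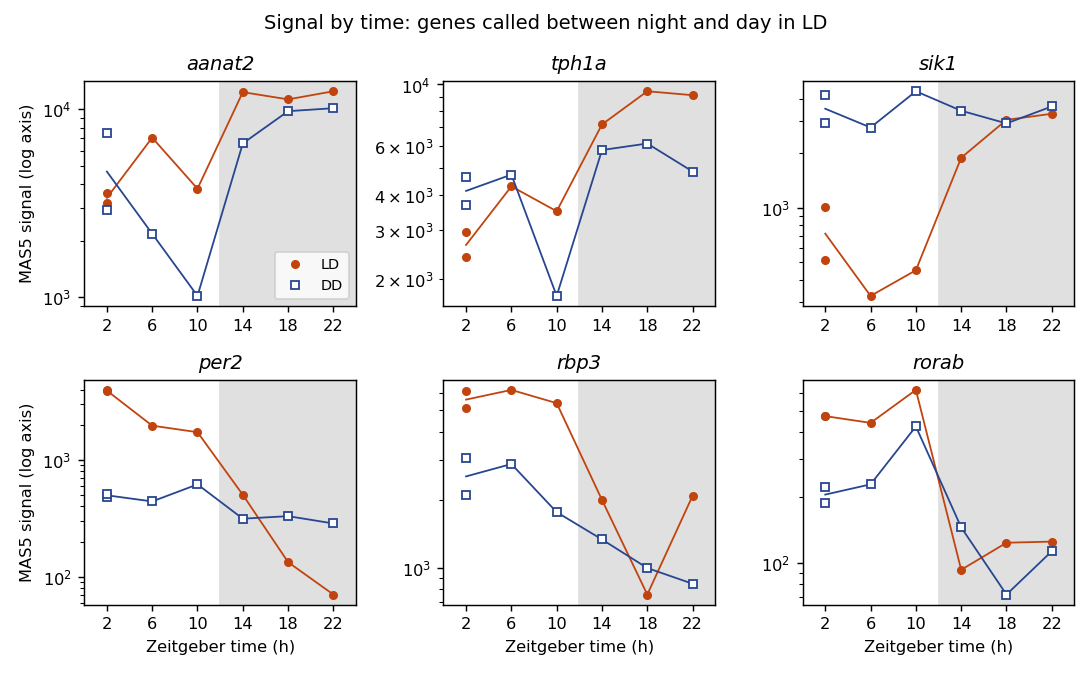
MAS5 signal (log axis) against zeitgeber time (h) for 6 called genes, in LD (filled circles) and DD (open squares); points are single arrays, the line passes through the mean of ZT2 and ZT2b, and the grey background marks darkness in LD. Aanat2, tph1a and sik1 are higher on the 3 LD night arrays and per2, rbp3 and rorab lower, while sik1 in DD lies between 2768 and 4387 at every time.

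Among clock genes, per2 had the largest change of any gene tested. Per2 encodes a Period repressor that light induces in fish tissues. It read 3974, 3861, 1966 and 1728 at ZT2, ZT2b, ZT6 and ZT10, and 504, 134 and 70.6 at ZT14, ZT18 and ZT22. The level was highest 2 h after lights on, fell at each later time, and was lowest at the end of the night. The day mean of 2882 ± 1200 (SD, n = 4) compares with a night mean of 236 ± 234 (SD, n = 3). On the log2(signal + 14.9) scale the fall was 14.4-fold (-3.85 ± 0.55 SE, limma adjusted p = 0.0246). A second per2 probe set also fell (-1.87, limma adjusted p = 0.0471). The call on the main probe set was lost without ZT2, ZT2b, ZT6 or ZT18, with adjusted p up to 0.156.

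Rorab, a retinoid-related orphan receptor that activates bmal transcription, was the called gene with the smallest adjusted p. It read 472, 472, 439 and 622 at ZT2, ZT2b, ZT6 and ZT10, and 93.0, 124 and 125 at ZT14, ZT18 and ZT22. Its day arrays were close together apart from a higher ZT10, and 4 h later, at ZT14, it was at its lowest. The fall was 4.00-fold (SE 0.18 on the log2 scale, limma adjusted p = 0.00426). The related rorcb was 410 at ZT10 and 23.8 at ZT14, but at 34.4 to 46.8 it was also low at ZT2 and ZT2b, and it was not called (-2.22 ± 0.67 SE, limma adjusted p = 0.212).

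Nfil3-6, of the E4BP4 family of repressors that bind D-box sites, read 3071, 3794, 3491 and 1473 at ZT2, ZT2b, ZT6 and ZT10, and 336, 465 and 861 at ZT14, ZT18 and ZT22. It was high from morning to ZT6, had started down at ZT10, was lowest at ZT14 and was higher again at ZT22. The fall was 5.30-fold (-2.41 ± 0.37 SE, limma adjusted p = 0.0296), and the call was lost without ZT2, ZT2b, ZT6, ZT14 or ZT18, with adjusted p up to 0.171. Cry1a, a light-induced cryptochrome repressor in zebrafish, did not overlap between the groups (177 to 298 by day, 15.4 to 109 at night) and was not called (-2.09, limma adjusted p = 0.0751). With 1 array left out, its adjusted p ran from 0.0101 without ZT22, its highest night array, to 0.275 without ZT18.

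Several other clock genes had high and low arrays within the day group or within the night group, and were not called. Bhlhe40 encodes Dec1, a repressor at E-box sites. It read 3554, 4133, 3717 and 1329 from ZT2 to ZT10, 91.6 and 72.0 at ZT14 and ZT18, and 4354 at ZT22. So the last night array was the highest of all, and the night mean of 1506 had an SD of 2466. The change of -3.10 ± 1.15 SE was not called (limma adjusted p = 0.294). With 1 array left out, the adjusted p ran from 0.00456 without ZT22, the high night array, to 0.618 without ZT18.

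Nr1d2b, a Rev-erb nuclear receptor that represses bmal genes, and tefa, a PAR bZIP activator at D-box sites, were both low around dusk and high around dawn. Nr1d2b was 1661 and 1711 in the morning, 197 at ZT10, 59.6 at ZT14 and 1031 at ZT22. Tefa was 1635 and 1749 in the morning, 299 at ZT10 and 1436 at ZT22. Nr1d2b was lowest at ZT14 and tefa at ZT10, and neither was called (limma adjusted p = 0.522 and 0.787).

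Nfil3-5 was highest later in the day than its paralog nfil3-6: it was 33.4 and 47.6 in the morning, 6239 at ZT10, 1035 at ZT14 and 24.6 at ZT22. The activator genes bmal1a and bmal1b, whose products pair with Clock, were also highest at ZT10 (332 and 324) and lowest or nearly so at ZT22 (4.3 and 19.5). None of the 3 was called, and clocka stayed between 14.4 and 48.9 throughout. Over the lists, 1 of 5 activators, 1 of 9 repressors and 1 of 3 PAR bZIP and E4BP4 factors were called, all lower at night as 0.196% of all genes were, with medians of -0.83, -1.10 and -0.49.

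**Figure D3:**
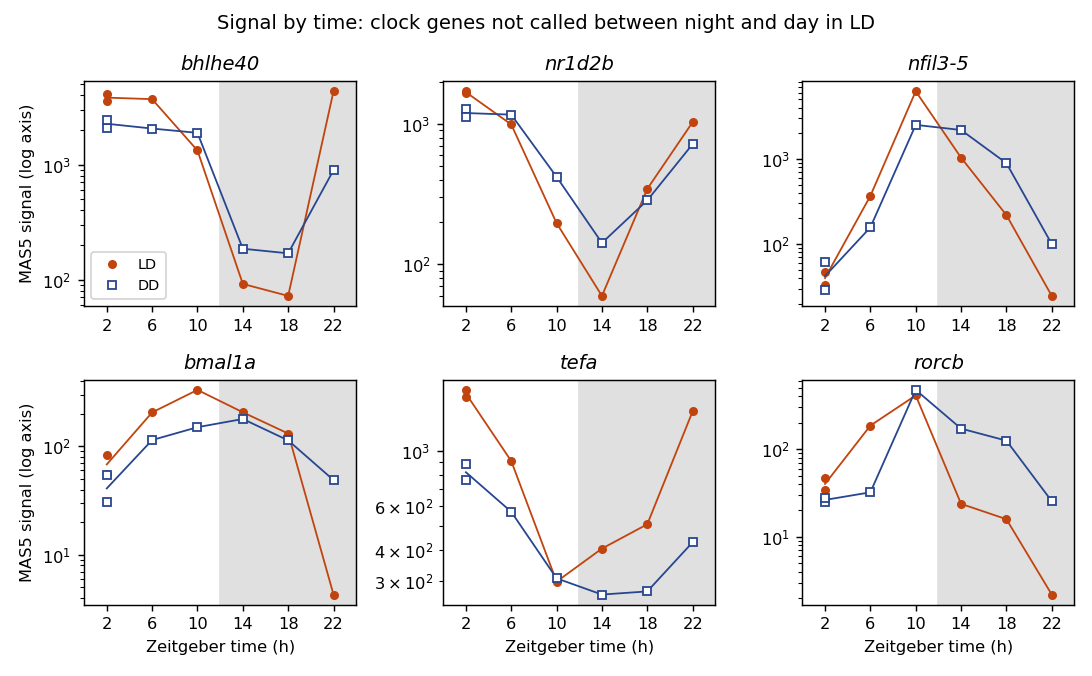
MAS5 signal (log axis) against zeitgeber time (h) for 6 clock genes that were not called between night and day, in LD (filled circles) and DD (open squares), drawn as in the plot of called genes. Bhlhe40, nr1d2b and tefa are high at both ZT2 and ZT22 in LD, and nfil3-5, bmal1a and rorcb are highest at ZT10, so that day and night each hold high and low arrays of most of these genes; rorcb is the exception, with its 3 night arrays below all 4 day arrays.

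Of the DNA repair genes, those with the largest differences were highest in the morning. The photolyase gene cry5, the related cry-dash and ddb2, which helps to recognise ultraviolet damage, were highest at ZT2 and ZT2b and lower at ZT6. Cry-dash read 259 and 252 in the morning, 60.8 at ZT6 and 44.3 at ZT10, and 18.5 to 76.0 at night. Afternoon and night arrays overlapped for all 3 genes. None of the 16 tested members of the DNA repair list was called, where 0.425% of all genes were. The list's median was -0.46, with 14 of 16 changes below 0, beside a median of -0.001 and 3062 of 6117 over all genes. Of the 16, 2 were lower without overlap, where 6.16% of all genes were.

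Photoreceptor genes were called in both directions. Opn1sw2, the blue cone opsin gene, read 92.0, 44.9, 57.3 and 139 at ZT2, ZT2b, ZT6 and ZT10, and 356, 247 and 316 at ZT14, ZT18 and ZT22. Every night array was above every day array, by 3.46-fold on average (1.79 ± 0.30 SE, limma adjusted p = 0.0445). The red cone opsin gene opn1lw1 was 1149 at ZT2, 7599 at ZT10 and 2085 at ZT22, and exorh overlapped between the groups (0.27); neither was called (limma adjusted p = 0.832 and 0.328).

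Guca1aa encodes a guanylate cyclase activating protein, the calcium sensor that restores cGMP after light. It read 468, 258, 707 and 677 at ZT2, ZT2b, ZT6 and ZT10, and 2151, 1604 and 1708 at ZT14, ZT18 and ZT22. The groups did not overlap and the rise was 3.59-fold (1.85 ± 0.31 SE, limma adjusted p = 0.0444). Guca1c, another activating protein gene, had the opposite sign: 340, 371, 224 and 76.2 by day and 17.9, 26.0 and 81.5 at night, with ZT22 just above ZT10 and no call (-2.21 ± 0.51 SE, limma adjusted p = 0.116). These calls were lost without any of several arrays, with adjusted p up to 0.158 for opn1sw2 (each array but ZT10) and 0.171 for guca1aa (ZT2, ZT6, ZT14, ZT18 or ZT22).

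Rbp3 encodes interphotoreceptor retinoid-binding protein, which carries retinoids outside the photoreceptors. It read 5122, 6098, 6173 and 5389 at ZT2, ZT2b, ZT6 and ZT10, and 1999, 758 and 2086 at ZT14, ZT18 and ZT22. The day arrays lay within a narrow range and ZT18 was the lowest of the night. The fall was 3.83-fold (-1.94 ± 0.30 SE, limma adjusted p = 0.0316), and the call was lost without ZT2, ZT2b, ZT6 or ZT14, with adjusted p up to 0.112. The retinol uptake receptor gene stra6 was 3556 to 4189 by day and 2407 to 3400 at night, without overlap and without a call (limma adjusted p = 0.225).

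None of the 12 tested transducin and phosphodiesterase genes was called, where 0.425% of all genes were. The list's channel genes were not among those tested. Pde6hb, an inhibitory subunit gene of cone phosphodiesterase, came nearest: 2268 to 2640 by day and 618 to 1284 at night (-1.31, limma adjusted p = 0.0552). The transducin beta gene gnb3b was 347 to 955 by day and 1051 to 1518 at night (2.30-fold, limma adjusted p = 0.146). Of these 12 genes, 4 were higher and 1 lower at night without overlap, where 6.87% and 6.16% of all genes were. By list, 1 of 4 opsins and 1 of 10 calcium sensor and shut-off genes were called higher, where 0.229% of all genes were. In the retinoid cycle list 1 of 10 was called lower, where 0.196% of all genes were.

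No gene of the 20 pineal and photoreceptor transcription factors was called, where 0.425% of all genes were. Foxd3, which acts in zebrafish pineal and parapineal development, came nearest, at 224 to 355 by day and 475 to 647 at night (1.04, limma adjusted p = 0.0620). The homeobox regulators crx and otx5 stayed within 976 to 1735 and 156 to 290, with overlapping groups. The list's median was 0.03.

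Sik1 had the largest rise of any called gene. It encodes a salt-inducible kinase that cAMP signalling induces and that restrains the coactivators of CREB. It read 1006, 514, 326 and 452 at ZT2, ZT2b, ZT6 and ZT10, and 1886, 3051 and 3296 at ZT14, ZT18 and ZT22. The level was higher at each later time of the night, lower 2 h after lights on and lowest at ZT6. The rise was 4.95-fold (2.31 ± 0.34 SE, limma adjusted p = 0.0296), and the call was lost without ZT2b, ZT6, ZT18 or ZT22, with adjusted p up to 0.158.

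Sik1 was the sole called member of 34 tested cAMP-responsive and immediate early genes, where 0.229% of all genes were called higher. Of the 34, 5 were lower and 2 higher at night without overlap, where 6.16% and 6.87% of all genes were. The AP-1 genes junba (-0.73) and fosl2 (-0.14) overlapped between the groups. The AP-1 genes jun, junbb and fosab lay lower at night without overlap: jun was 461 to 1588 by day and 229 to 327 at night. None of these 3 was called (limma adjusted p = 0.119, 0.136 and 0.285), and a second fosab probe set changed less (-0.47 ± 0.44 SE, limma adjusted p = 0.709). Fosab was 298 at ZT2 but 63.8 at ZT2b, so the 2 morning pools differed more than ZT2b did from the night arrays, which were 30.3 to 56.2. In the list of cAMP and G protein signalling, prkar2aa, a regulatory subunit of protein kinase A, was 680 to 1238 by day and 1421 to 1966 at night, also without a call (limma adjusted p = 0.113).

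The other genes that rose at night had mixed roles. Ptp4a1, a tyrosine phosphatase gene, read 959, 922, 732 and 1097 at ZT2, ZT2b, ZT6 and ZT10, and 2246, 2714 and 2553 at ZT14, ZT18 and ZT22. Both groups were tight and well apart (2.69-fold, 1.43 ± 0.16 SE, limma adjusted p = 0.00727). By the probe sets of highest mean, this was the smallest adjusted p of the genes that rose. Ppp1r3c2b, which directs protein phosphatase 1 to glycogen, was 79.3 to 122 by day and 271 to 315 at night (2.58-fold, limma adjusted p = 0.0135). These were the genes that rose whose call was lost without ZT18 alone (adjusted p = 0.0829 and 0.0882).

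Membrane and synaptic genes among those that rose were nptna, encoding the adhesion protein neuroplastin (2.59-fold), and the kainate receptor subunit gene grik1a (1.97-fold). Grik1a was 490 to 603 by day and 1021 to 1080 at night, within a narrow range in both groups. The adaptor gene sorbs2b rose 3.14-fold, from 93.0 to 223 by day to 491 to 517 at night. Fkbp1b, whose product binds calcium release channels, rose 2.27-fold. The ubiquitin-conjugating enzyme gene ube2h (2.05-fold), the polyamine acetyltransferase gene sat1a.2 (1.89-fold) and the ciliary gene tmem237a (1.76-fold) also rose. Limma's adjusted p of these 7 genes was between 0.0135 and 0.0497. By the probe sets of highest mean, it was between 0.0829 and 0.239 without ZT18 for all 14 genes that rose. The second tph1a probe set was at 0.0417 there. None of the 7 was called without ZT2 either; without ZT6 only fkbp1b of them was called, without ZT14 only nptna, without ZT2b only fkbp1b and sat1a.2, and without ZT22 only fkbp1b and grik1a.

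Among the genes that fell, LOC567909, to which the files give no role, had the second largest fall of the called genes. It read 918, 1091, 502 and 548 at ZT2, ZT2b, ZT6 and ZT10, and 73.7, 112 and 59.4 at ZT14, ZT18 and ZT22. It was highest in the morning, as per2 was, and 7.86-fold lower at night (-2.97 ± 0.30 SE, limma adjusted p = 0.00576). Stxbp5a, which encodes the vesicle release inhibitor tomosyn, was 438 to 710 by day and 101 to 264 at night (3.24-fold lower). It was 101 at ZT14 and 264 at ZT22, below each day array.

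The remaining falls were smaller. Ptprb, a receptor phosphatase gene of vessels, fell 2.45-fold, and the tRNA-modifying enzyme gene cdkal1 fell 2.26-fold. For both, ZT10 was the lowest day array (211 and 106). Rsrp1 fell 2.17-fold, from 921 to 1404 by day to 492 to 584 at night, again with ZT10 the lowest by day. The ribosome assembly gene bxdc2 (1.95-fold), the lipoprotein receptor relative lrp1aa (1.91-fold) and the elongation factor gene eef1a1b (1.94-fold) fell least. Eef1a1b has near-identical paralogs that its probes may also bind. Limma's adjusted p of stxbp5a and these 6 genes was between 0.0216 and 0.0471, and each of their calls was lost without ZT2, ZT2b, ZT6, ZT14 or ZT18, with adjusted p up to 0.224. Without ZT22 stxbp5a and lrp1aa were called and the other 5 were not.

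**Figure D4:**
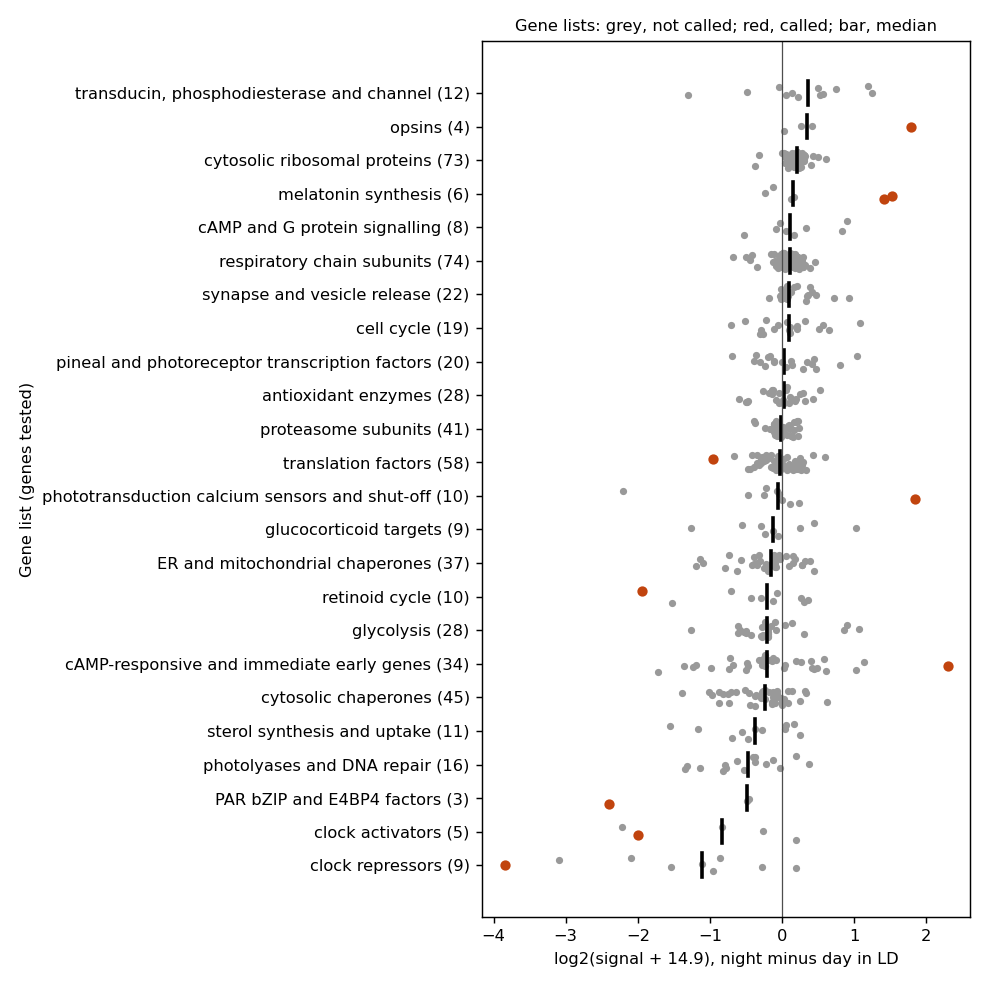
Change between night and day in LD, log2(signal + 14.9), for each tested gene of 24 gene lists, with the number of tested genes in brackets. Grey points are genes not called, red points are called genes and the black bar is the list's median; the called genes lie in 9 lists, and medians run from -1.10 for clock repressors to 0.37 for the list of transducin, phosphodiesterase and channel genes, whose tested members hold no channel gene.

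Several housekeeping groups lay to one side without a gene passing the test. Of all genes, 0.425% passed it. Of 73 cytosolic ribosomal protein genes, 70 were higher at night and 33 were higher without overlap (45.2%, beside 6.87% of all genes), with a median of 0.21. That median was 0.25 with median centring and 0.07 with quantile normalisation, where 60 of 73 were higher. The summed signal of all 6117 genes tested was also higher on every night array. It was 2.641e+06 to 2.665e+06 by day and 2.703e+06 to 2.862e+06 at night. The ribosomal genes are part of that sum, with 3.446e+05 to 3.716e+05 by day and 3.861e+05 to 4.48e+05 at night. Whether their difference goes beyond that of the other genes was not tested. Rpl36a had the largest difference, 2460 to 2719 by day and 3537 to 4939 at night (0.61, limma adjusted p = 0.109). Of 74 respiratory chain subunit genes 53 were higher at night (48 with quantile normalisation), with a median of 0.11. Of the 74, 13 were higher and 2 lower without overlap, where 6.87% and 6.16% of all genes were. The 2 lower were the complex II genes sdha and sdhb (-0.50 and -0.68, limma adjusted p = 0.232 and 0.191). The other complex II genes, sdhc and sdhdb, were at 0.06 and 0.08.

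Chaperone genes lay the other way. Of 45 cytosolic chaperone genes, 35 were lower at night and 6 were lower without overlap (6.16% of all genes were), with a median of -0.24. No gene was called, where 0.425% of all genes were. Of 37 endoplasmic reticulum and mitochondrial chaperone genes, 27 were lower and 7 lower without overlap, beside the same 6.16% (median -0.15). The mitochondrial chaperonin pair hspd1 and hspe1 lay lower in the same way: hspd1 was 640 to 1158 by day and 338 to 493 at night, and hspe1 was 583 to 1633 by day and 370 to 534 at night. Both were highest at ZT6, and neither was called (limma adjusted p = 0.0751 and 0.133).

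Among 11 sterol genes, 7 were lower and 4 higher at night, and none was called, where 0.425% of all genes were. Hmgcs1, an early enzyme of cholesterol synthesis, was 233 to 566 by day and 81.7 to 167 at night (-1.56, limma adjusted p = 0.0751). Insig1, which senses sterols, was 220 to 235 on 3 day arrays, 106 at ZT10 and 68.1 to 82.0 at night (-1.16, limma adjusted p = 0.106). Of the 11 genes, 3 were lower without overlap (6.16% of all genes were), and the median was -0.37.

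Glycolysis genes were lower in 22 of 28 cases (median -0.21), beside 3062 of all 6117 genes. Of the 28, 7 were lower and 3 higher without overlap, where 6.16% and 6.87% of all genes were. The list's largest change was that of pfkfb4b, which overlapped between the groups (477 to 2215 by day, 256 to 1114 at night). It was lower at night and was not called (-1.26, limma adjusted p = 0.376). The largest differences upward without overlap belonged to the triosephosphate isomerase gene tpi1a (683 to 1195 by day, 1840 to 2035 at night, limma adjusted p = 0.0751) and the glucose transporter gene slc2a3a (207 to 269 by day, 300 to 721 at night, limma adjusted p = 0.194). Among 22 synapse and vesicle release genes 5 were higher without overlap, beside 6.87% of all genes, and none was called (median 0.10). Antioxidant enzymes (28 genes), the cell cycle (19), proteasome subunits (41), cAMP and G protein signalling (8) and glucocorticoid targets (9) had no call either. Of all genes, 0.425% were called. Of 58 translation factors the single call was eef1a1b, lower at night, where 0.196% of all genes were called lower. Klf9, a glucocorticoid-responsive transcription factor gene, spanned 107 at ZT10 to 1330 at ZT22 and overlapped between the groups.

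Markers of other cell types were also compared. None of the tested genes of 11 marker lists was called: 14 glia, 6 myelin, 12 neuron, 5 habenula, 12 red cell, 7 vessel, 22 leukocyte, 22 skin, 22 connective tissue and meninges, 1 pigment cell and 12 muscle genes. Only 0.425% of all genes were called, so no call in lists of this size says little about these cell types. Connective tissue and meninges had the most members without overlap, 4 lower and 1 higher at night of 22 (13.0% of all genes did not overlap). Their summed signal was 7385 to 13890 by day and 5449 to 8780 at night. Much of that sum was 1 gene, rbp4, which is also in the retinoid cycle list and overlapped between the groups. Its mean was 6130 by day and 2344 at night. Skin genes varied between single pools: krt5 was 85.2 at ZT6 and 838 at ZT22, and pvalb8 was 172 and 405 at ZT14 and ZT18 but 3.8 to 16.2 on the other 5 arrays. The part of tissue carried over from outside the gland in the changes above was not tested. The fast muscle genes pvalb2 and mylpfa were at or near the floor (2.9 to 8.9 and 5.4 to 29.2). Other muscle genes read higher: tpma had means of 94.0 by day and 102.5 at night, and mybphb of 98.5 and 107.7.

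The 7 DD arrays, collected at the same times in constant darkness, show whether the difference between night and day is of the same size without the light cycle. In DD no probe set was called between subjective night and day (0.0%; 448 of 9300 with an unadjusted p under 0.05, 4.82%). The difference of the change between LD and DD, tested over all 14 arrays, was called for no probe set (0.0%; 440 with an unadjusted p under 0.05, 4.73%; smallest adjusted p = 0.184). The DD array of ZT10 stood apart, with poly-A spikes at 1620 against at most 237 on the other 13 arrays, and the smallest adjusted p without it was 0.0686, for LOC567909.

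Of the 26 genes called in LD, 25 had the same sign in DD, and 25 had a smaller difference in DD than in LD. Without the DD array of ZT10, an alternative chosen after seeing the data, these counts were 25 and 26, sik1 was at 0.03 and LOC567909 (0.02) was the gene of opposite sign. These genes were chosen for their change in LD, so a smaller change elsewhere is no independent result. Aanat2 had a DD difference of 1.71 ± 0.52 SE beside 1.52 ± 0.23 SE, or 1.26 without the DD array of ZT10. Its difference between conditions was -0.19 ± 0.64 SE. The DD difference of tph1a was 0.69, or 0.36 without that array.

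Sik1 read 2768 to 4387 on all 7 DD arrays, close to its LD night level, so that its LD day arrays (326 to 1006) were below every other array. Its DD change was -0.08 ± 0.20 SE, and the difference between conditions was 2.39 ± 0.43 SE (unadjusted p = 4.17e-05, limma adjusted p = 0.184). Per2 showed the other pattern, with 286 to 618 on the DD arrays, far below its LD day level, and a DD change of -0.69 ± 0.18 SE (difference -3.16 ± 0.63 SE, limma adjusted p = 0.213). LOC567909 resembled per2, at 119 to 390 in DD with a change of -0.24 (difference -2.73 ± 0.50 SE, limma adjusted p = 0.184).

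The smallest p of this difference belonged to dpf2, a chromatin-reader gene that was not called in LD. It was 77.6 to 110 by day and 163 to 187 at night in LD (0.82 ± 0.17 SE, limma adjusted p = 0.0806) and had the opposite sign in DD, 204 to 283 by day and 138 to 175 at night (-0.57 ± 0.18 SE). The difference was 1.40 ± 0.24 SE (unadjusted p = 2.49e-05, limma adjusted p = 0.184). In all, 15 of the 26 called genes had an unadjusted p under 0.05 for the difference between conditions, beside 440 of all 9300 probe sets (4.73%). None passed the threshold after adjustment. The difference contains the LD change by which the 26 were chosen, so the count of 15 is no independent result.

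**Figure D5:**
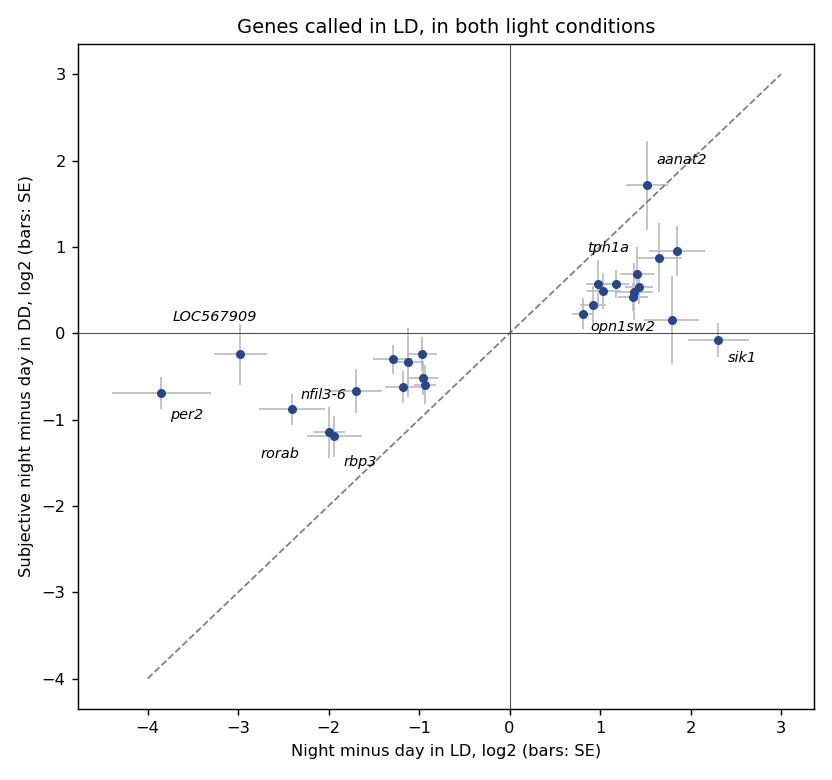
Change between night and day in DD (vertical axis) against that in LD (horizontal axis), both in log2(signal + 14.9), for the 26 genes called in LD; bars are standard errors and the dashed line marks equal change. All points but aanat2 lie nearer to zero in DD than in LD, and sik1 (2.31 in LD, -0.08 in DD) alone has opposite signs with all arrays (0.03 in DD without ZT10).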

How the data were processed

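For each probe set the authors deposited a MAS5 signal, a linear intensity. Their processing notes, as the submitters gave them, name GCOS and MAS5, with no version. Per the labels' protocols, RNA was amplified about 1800-fold by 2 rounds of in vitro transcription. Each array had been scaled before deposit: without 2% of the values at each end, the mean was 150.04 to 150.05 on the LD arrays. Detection calls, dates and batches were not used here, and no column of another series was present (0 columns).

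Of 15617 probe sets, 115 controls and 1 with an empty cell were left out. Of the 15502 that were not controls, the platform annotation gave 1 symbol to 10795, several to 135 and none to 4572; 10679 were matched through the Entrez ID, which changed 1 symbol. Probe sets with a mean over the 14 arrays above 29.2, the 40th percentile, were tested: 9300 probe sets and 6117 genes, each gene by its brightest tested probe set. The constant 14.9 is the 25th percentile of all values. Night was compared with day by lmFit and eBayes (trend) of limma 3.58.1, run in R 4.3.3, on the 7 LD arrays, and the difference between LD and DD on all 14. The script was tested on simulated data. Leaving out each array, other constants, filters, scalings and sample choices were tried. Nothing says that pools are independent beyond their collection. The p-values set a change against the spread between these pools and their times of day, and the number of arrays limits the precision.

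Named genes were the 12 largest rises and falls called without overlap (places left went to the smallest p not called), the called members and up to 3 largest changes of each list, 12 genes named in advance (of which asmt was not tested), and the 3 smallest p of the difference between conditions. Sat1a.2, tmem237a, hnrnpa0b, sdhc, sdhdb, pvalb2, mylpfa, tpma, mybphb, junba and fosl2 fall outside this rule and were named after their values were seen. The comparison, the members and the gene lists were chosen with earlier results of these data known. Called probe sets without a single symbol (9) are not named, and no sequence or coordinate is given.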

Additional observations from a re-analysis of the deposited data

Results flagged for a closer look

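In 5 of 89 genes examined, 1 of the 4 day arrays lay far from the other 3. The measure was the gap to its nearest neighbour as a share of the whole range. Chance would flag about 1 gene in 20 if the 4 values came from 1 normal distribution, which arrays of different times need not. At ZT10, bhlhe40 read 1328 against 3554 to 4133, and insig1 read 106.3 against 219.7 to 234.9. At ZT6, slc2a3a read 269.2 against 207 to 215.6, cox4i2, a cytochrome oxidase subunit gene, read 3364 against 4097 to 4178, and krt91, a keratin gene, read 157.9 against 453 to 537. The times of day differ between these arrays, so a time and a single pool cannot be told apart.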

How the results depend on the processing

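Against 38 called probe sets, 68 were called with the spread from all 14 arrays. With ZT2 and ZT2b averaged 11 were called, and 6 of the 26 called genes remained. With only ZT6 and ZT10 against ZT18 and ZT22, 5 were called, and per2 and sik1 remained of the 26. Leaving 1 array out gave between 5 and 102. The other settings gave 30 to 37, and median centring called 21 higher and 11 lower against 21 and 17. Of the 26 called genes, quantile normalisation lost 5, among them aanat2 and guca1aa. A robust variance prior also lost 5: aanat2, guca1aa, per2, nfil3-6 and rbp3. The difference between LD and DD was called for 0 probe sets in the main fit and between 0 and 1 with 1 array left out. Over all settings, none of 467 values of the 26 called genes changed sign and 187 lost the call. Of 1130 values of 63 genes not called, 28 passed the threshold and 14 changed sign. With ZT6 and ZT10 against ZT18 and ZT22 these were ddc (0.0943), nr1d2b (0.4104), tefa (0.6929), cry5 (0.2632), cry-dash (0.0329) and opn1lw1 (-0.9674). With 1 array left out, bmal1a ranged from -1.5183 to 0.2448, bmal1b from -0.7411 to 0.3697, nfil3-5 from -1.6008 to 1.0233, opn1lw1 from -0.0409 to 0.8901 and clocka from -0.0474 to 0.3534. The fits that drop arrays rest on fewer samples; otherwise the cause was not tested. With the time of day as a block shared by LD and DD, the difference between conditions was again called for 0 probe sets (527 with an unadjusted p under 0.05, 440 without the block). Night and day arrays of LD share no time, so for that comparison no such block could be fitted.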
